A study of Sus scrofa with 6 samples.

Results

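The genes described here are 10 components of the integrated stress response and of the unfolded protein response that joins it, out of 29861 genes in the expression table. They are ATF4, DDIT3, the 4 eIF2α kinase genes EIF2AK1 to EIF2AK4, the phosphatase adaptors PPP1R15A and PPP1R15B, XBP1 and ATF6. They were chosen by symbol when the FPKM of these same samples had already been analysed, so their levels and differences are given as descriptions without a test. RNA was sequenced from porcine oocytes in 3 groups of 2 samples each. Control oocytes were matured in vitro without heat or supplement, heat-stressed oocytes were kept at a raised temperature during the first 24 h of maturation, and the third group received the same heat with nicotinamide mononucleotide (NMN), a precursor of NAD+. All groups came from slaughterhouse ovaries and were cultured as cumulus-oocyte complexes, and RNA was taken from pooled oocytes. The labels give the oocytes as germinal vesicle stage (GV) at 24 h, whereas the methods give metaphase II. Nothing states whether the 2 samples of a group came from separate cultures, so the variation between them may be only technical. Every P-value sets a difference against that variation, pooled over the groups fitted and drawn towards that of genes of similar level.

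In the integrated stress response, 4 kinases that sense different stresses phosphorylate eIF2α, which lowers translation initiation in general and raises translation of a few mRNAs with upstream open reading frames, ATF4 among them. The ATF4 protein then activates genes of amino acid supply and redox balance, and DDIT3 (CHOP), a factor of the later, death-related phase. PPP1R15A (GADD34) and PPP1R15B (CReP) bring protein phosphatase 1 to eIF2α and reverse the mark. XBP1 and ATF6 serve the other arms of the unfolded protein response and are activated by splicing of the mRNA and by cleavage of the protein. A full-grown oocyte transcribes little and lives on stored mRNA, much of which is degraded during maturation. The values below are transcript levels per gene, and phosphorylation of eIF2α, translation of ATF4 and splicing of XBP1 were not measured by them.

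The depth behind the values is unknown, since they are FPKM (fragments per kilobase of transcript, scaled within each sample). The kind of scaling was not established here. Factors that would bring the tested genes of each sample to the same median lay between 0.981 and 1.02, so the medians were nearly equal as deposited. The sum of FPKM over all genes ranged from 163929 to 290136, and mitochondrially encoded genes took 66.4% and 61.7% of it in control, 62.4% and 71.6% under heat and 74.2% and 74.7% under heat with NMN. The highest sum was that of heat-stressed replicate 1, where the gene LOC100513953 alone took 13.9% and was listed at 0 in all other samples. Of 12 oocyte markers 11 were in the table, and their summed FPKM was 2461 to 2566 in control, 2442 to 2582 in heat-stressed and 2185 to 2349 in NMN-supplemented oocytes. That sum was carried by BMP15, at 1606 to 1940 FPKM, and GDF9, at 353 to 777 FPKM, so it does not show the course of the other markers. The summed FPKM of 15 cumulus and granulosa cell markers was 5.55 to 6.45, 7.81 to 8.12 and 8.88 to 8.90 in the same order. INHA and AMH, which define granulosa cells, were listed at 0 in every sample, and 12 of the 15 markers were below 1 FPKM throughout. The sum was carried by KITLG (2.25 and 2.02, 2.89 and 2.89, and 3.34 and 3.44 FPKM) and GREM1 (2.48 and 1.73, 3.27 and 2.87, and 3.58 and 3.55 FPKM). Blood and immune cell markers (6 of 7 in the table) summed to at most 0.486 FPKM. The part of these shifts in the results below was not tested, and in pooled samples fewer cells of a type and less RNA per cell cannot be told apart. GAPDH, which every cell uses, had low FPKM in all samples. It was listed at 0 in heat-stressed replicate 1 and at 0.208 to 0.315 FPKM in the other samples. A value of 0 is read here only as listed at 0.

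The upstream sequences of 3 members and of 2 downstream genes are printed because 3 of the 5 hold a response element of the pathway. ATF4 and PPP1R15A are included as the members with the highest FPKM. Each is the 250 bases before the annotated gene start in the RefSeq annotation of Sscrofa11.1, read 5′ to 3′ on the strand of the gene. The windows are chr5:8745753-8746002 (minus strand) for ATF4, chr6:54171788-54172037 (plus strand) for PPP1R15A, chr14:46016527-46016776 (minus strand) for XBP1, chr1:130363333-130363582 (minus strand) for CHAC1 and chr2:66102075-66102324 (minus strand) for CALR. Capitals mark the endoplasmic reticulum (ER) stress element in XBP1 and, on the other strand, in CALR, and the amino acid response element core, also on the other strand, in CHAC1.
ATF4: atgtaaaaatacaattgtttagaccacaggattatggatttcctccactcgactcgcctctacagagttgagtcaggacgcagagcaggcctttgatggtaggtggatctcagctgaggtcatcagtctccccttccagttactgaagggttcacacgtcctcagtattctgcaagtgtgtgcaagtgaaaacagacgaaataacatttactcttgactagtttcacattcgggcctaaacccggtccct
PPP1R15A: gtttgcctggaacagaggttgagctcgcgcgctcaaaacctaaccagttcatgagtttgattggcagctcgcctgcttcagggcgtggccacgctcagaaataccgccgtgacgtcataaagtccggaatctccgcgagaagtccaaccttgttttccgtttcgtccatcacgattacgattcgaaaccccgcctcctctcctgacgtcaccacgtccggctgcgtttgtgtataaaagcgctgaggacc
XBP1: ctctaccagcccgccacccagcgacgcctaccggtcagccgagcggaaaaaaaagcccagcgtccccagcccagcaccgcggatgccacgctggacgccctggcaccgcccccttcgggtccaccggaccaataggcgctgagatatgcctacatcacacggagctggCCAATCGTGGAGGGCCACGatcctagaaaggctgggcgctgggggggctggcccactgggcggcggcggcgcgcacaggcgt
CHAC1: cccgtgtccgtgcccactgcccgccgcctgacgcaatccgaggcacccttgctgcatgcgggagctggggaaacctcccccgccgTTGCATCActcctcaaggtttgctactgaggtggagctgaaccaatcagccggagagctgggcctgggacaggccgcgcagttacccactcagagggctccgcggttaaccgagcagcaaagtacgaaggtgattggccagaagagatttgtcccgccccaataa
CALR: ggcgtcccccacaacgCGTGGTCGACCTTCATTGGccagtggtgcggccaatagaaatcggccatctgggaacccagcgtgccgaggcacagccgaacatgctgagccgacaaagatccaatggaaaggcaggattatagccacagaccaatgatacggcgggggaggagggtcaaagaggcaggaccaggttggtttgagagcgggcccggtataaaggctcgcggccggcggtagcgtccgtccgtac
The ER stress element (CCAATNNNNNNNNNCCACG, bound by ATF6 together with NF-Y) was searched on both strands and was found in 14 of 19555 such windows of the genome (0.0716%). XBP1 was the only member that held it, from 82 to 64 bases before the start. Of the pathway genes listed further below, which were drawn up as known targets, HSP90B1, DERL3, PDIA6, CALR, CANX and CRELD2 held it too. The amino acid response element core (TGATGNAA, a site of ATF4 with a C/EBP partner) occurred in 470 windows (2.40%), among them those of the listed targets PCK2, SLC7A11, CHAC1, AARS, VLDLR and FGF21, and in that of no member. A heat shock element (GAANNTTCNNGAA) occurred in 65 windows (0.332%) and likewise in that of no member. The CCAAT box, which is contained in the ER stress element, was present in 31.9% of all windows and upstream of DDIT3, EIF2AK3, PPP1R15A, XBP1 and ATF6. These matches are descriptions of letters in a short window and are no evidence of binding.

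Among the 10 members, only PPP1R15A and ATF4 were well expressed. PPP1R15A had a mean of 19.6 FPKM over the 6 samples (percentile 98.3 of all genes) and ATF4 a mean of 14.7 FPKM (percentile 97.8), and the ranges of both overlapped. DDIT3 followed at a mean of 1.12 FPKM, and its range overlapped those of PPP1R15B (1.07 FPKM) and ATF6 (1.02 FPKM). Every other member had a mean below 1 FPKM. EIF2AK2 averaged 0.532 FPKM and EIF2AK4 0.397 FPKM, and these ranges overlapped too. The lowest values of DDIT3 (0.284 FPKM) and PPP1R15B (0.580 FPKM) lay below the highest value of EIF2AK2 (0.668 FPKM). XBP1 averaged 0.167 FPKM, and its range overlapped those of EIF2AK2, EIF2AK4, EIF2AK3 (0.0470 FPKM) and EIF2AK1. EIF2AK1 was lowest, with 5 of 6 samples listed at 0, and its range lay just below that of EIF2AK3. Thus 5 of the 10 members reached the mean of 1 FPKM that was required of the 4713 genes compared in the model, and the other 5 are given by their FPKM alone.

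**Figure D1:**
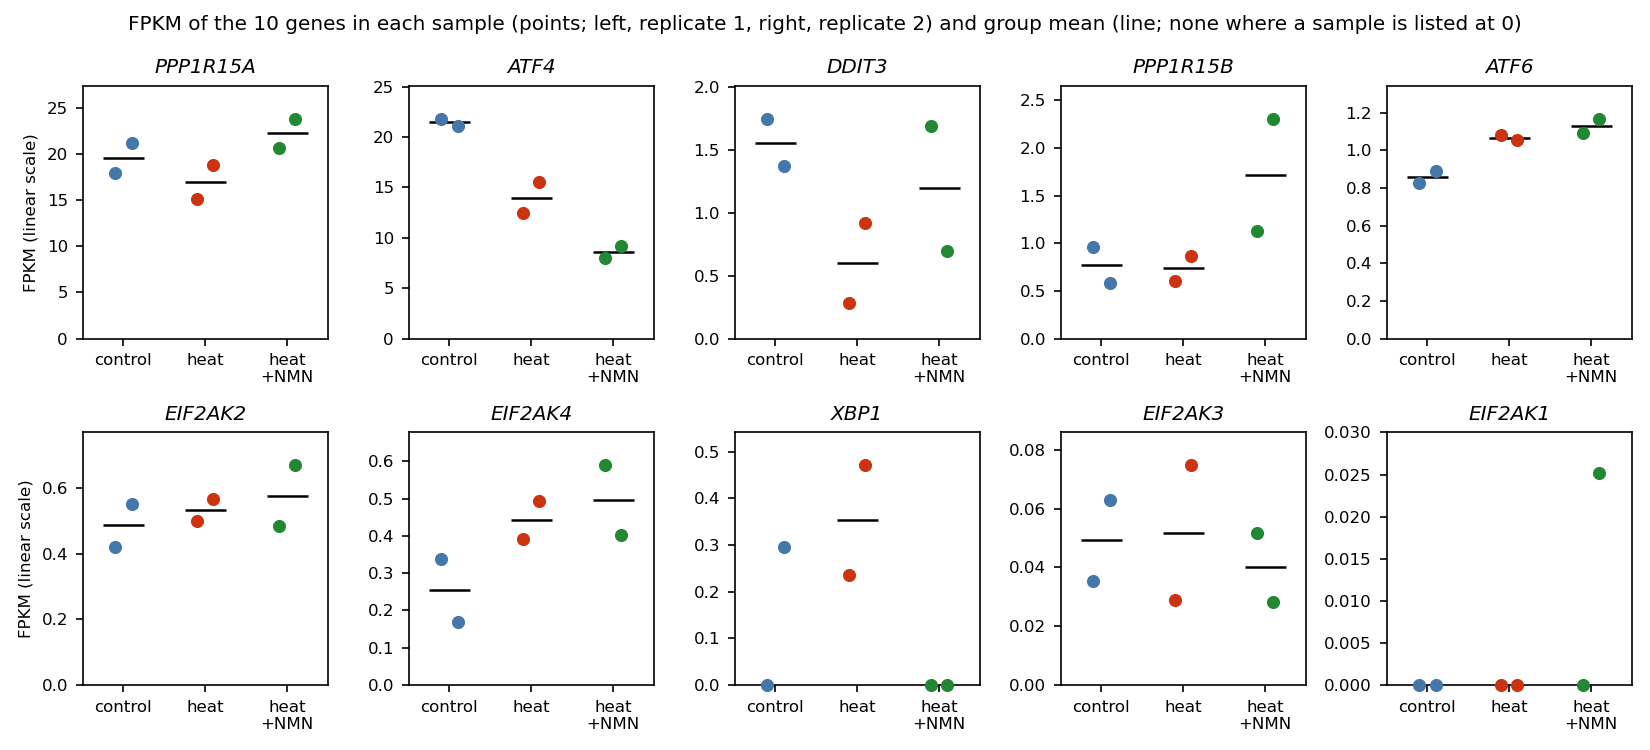
FPKM of each of the 10 members (1 panel each, with its own y axis starting at 0) in the 2 control, 2 heat-stressed and 2 NMN-supplemented samples, with points for samples and lines for group means where no sample is listed at 0. ATF4 steps down from about 21 FPKM in control to 7.99 and 9.20 FPKM under heat with NMN without overlap, whereas PPP1R15A stays between 15.1 and 23.8 FPKM.

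ATF4, the central transcription factor of the response, was lower in heat-stressed than in control oocytes and lower again with NMN. It lies at chr5:8742964-8745752 on the minus strand and shares its locus with no other gene. Its FPKM was 21.8 and 21.1 in control, 12.5 and 15.5 under heat and 7.99 and 9.20 under heat with NMN. The 3 groups did not overlap, and the control samples differed least from each other. The group means were 21.5 ± 0.495, 14.0 ± 2.16 and 8.59 ± 0.854 FPKM (SD, n = 2 each). The FPKM ratio was 0.652 for heat-stressed over control, 0.615 for NMN-supplemented over heat-stressed and 0.400 for NMN-supplemented over control oocytes. On the log2(FPKM + 1) scale, which understates changes of low genes, the differences were −0.59, −0.64 and −1.23, each with a moderated SE of 0.14. The median difference of all 4713 tested genes was 0.05, 0.08 and 0.11 in the same comparisons, so ATF4 moved against a small general shift upward. Leaving out 1 library at a time gave −0.74 to −0.44, −0.79 to −0.49 and −1.32 to −1.14. The ATF4 level of NMN-supplemented oocytes was thus further below control than that of heat-stressed oocytes. The comparisons share samples and are not independent of each other.

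DDIT3, the ATF4-induced factor CHOP, was low in heat-stressed oocytes and scattered with NMN. Its FPKM was 1.74 and 1.37 in control, 0.284 and 0.917 under heat and 1.69 and 0.698 under heat with NMN. Both heat-stressed samples were below both control samples, while the NMN-supplemented samples spanned from the heat-stressed to the control level. The difference of heat-stressed from control oocytes was −0.70, that of NMN-supplemented from heat-stressed oocytes 0.45 and that of NMN-supplemented from control oocytes −0.26, each with an SE of 0.29 (log2). The FPKM ratios were 0.386, 1.99 and 0.766. Single libraries decided these values. The first was −0.41 without heat-stressed replicate 1, and the second was 0.16 without heat-stressed replicate 1 and 0.11 without NMN-supplemented replicate 1. The third was 0.076 without NMN-supplemented replicate 2, so its sign rested on that sample. With a pseudocount of 0.1 FPKM the first and second were −1.40 and 0.93. DDIT3 lies at chr5:22785441-22789867 on the minus strand, and the locus given for it in the table is shared with MARS, GLI1 and ARHGAP9. MARS, at 0.0101 to 0.248 FPKM, overlaps it on the opposite strand, and overlap of their exons was not examined. The use of strand in the counting was not given in the sources used here, so reads from any bases they share cannot be told apart.

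The 4 kinase genes upstream of ATF4 were all below 0.7 FPKM in every sample. EIF2AK2 (PKR, which senses double-stranded RNA) was given as 0.421 and 0.552 FPKM in control, 0.501 and 0.565 under heat and 0.484 and 0.668 under heat with NMN. These groups overlapped in all 3 comparisons. EIF2AK4 (GCN2, the sensor of amino acid shortage) was given as 0.339 and 0.170 FPKM in control, 0.391 and 0.494 under heat and 0.589 and 0.403 under heat with NMN. All 4 heated samples were above both control samples, and the heated groups overlapped each other. Such separation upward was also found for 31.6% of all tested genes under heat relative to control and for 43.5% under heat with NMN relative to control. SRP14, at 5.16 to 9.02 FPKM, overlaps EIF2AK4 on the opposite strand, and without known strand reads from any exonic bases they share cannot be told apart. EIF2AK3 (PERK, the kinase of the ER) was given as 0.0352 and 0.0630 FPKM in control, 0.0289 and 0.0746 under heat and 0.0518 and 0.0283 under heat with NMN, with overlap throughout. EIF2AK1 (HRI, which responds to haem shortage and mitochondrial stress) was listed at 0 in every sample except NMN-supplemented replicate 2, at 0.0252 FPKM. AIMP2 and ANKRD61 overlap EIF2AK1 on the opposite strand. No kinase gene reached the mean of 1 FPKM required for the model.

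The 2 adaptors that lead protein phosphatase 1 to eIF2α had their highest group means with NMN. PPP1R15A (chr6:54172038-54175461, plus strand), the stress-inducible adaptor and itself a target of ATF4, had 17.9 and 21.1 FPKM in control, 15.1 and 18.8 under heat and 20.7 and 23.8 under heat with NMN. Only the heat-stressed and NMN-supplemented samples did not overlap, with a ratio of 1.31 and a log2 difference of 0.38 (SE 0.16). The differences from control were −0.20 in heat-stressed and 0.18 in NMN-supplemented oocytes with the same SE. Without heat-stressed replicate 1 the difference between the heated groups was 0.22 and that of heat-stressed from control oocytes −0.046, and without control replicate 1 that of NMN-supplemented from control oocytes was 0.066 (0.029 under quantile normalization). PPP1R15B (chr9:65056495-65069083, minus strand), the constitutive adaptor, had 0.960 and 0.580 FPKM in control, 0.608 and 0.863 under heat and 1.13 and 2.31 under heat with NMN. Both NMN-supplemented samples were above all others, but they differed from each other more than the other groups did. The FPKM ratio was 2.34 over heat-stressed and 2.23 over control oocytes, and the log2 differences were 0.62 and 0.59 (SE 0.25). They were 0.30 and 0.28 without NMN-supplemented replicate 2, 0.93 and 0.91 without NMN-supplemented replicate 1, and 1.06 and 1.02 with a pseudocount of 0.1 FPKM. Under heat relative to control the PPP1R15B samples overlapped at a difference of −0.024, whose sign turned under quantile normalization (0.029) and without control replicate 1 (0.13) or heat-stressed replicate 1 (0.082).

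Because ATF4 and PPP1R15A had similar levels, their ratio was taken within each sample, where the scaling of the sample cancels. This ratio was chosen after its values were seen. The FPKM of ATF4 over that of PPP1R15A was 1.22 and 0.999 in control, 0.827 and 0.824 under heat and 0.387 and 0.387 under heat with NMN. The groups did not overlap, and the samples within each heated group were nearly equal. A ratio within a sample shows that the 2 transcripts changed unequally and not which of them changed.

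Of the other unfolded protein response factors, XBP1, the mRNA spliced by IRE1, was barely found. It was listed at 0 in control replicate 1 and in both NMN-supplemented samples, at 0.296 FPKM in control replicate 2, and at 0.235 and 0.470 FPKM under heat. The heat-stressed samples overlapped the control samples and were above the NMN-supplemented samples, and no fold is given against a group at 0. ATF6, the ER-anchored factor that is cleaved under stress, had 0.829 and 0.889 FPKM in control, 1.08 and 1.05 under heat and 1.09 and 1.17 under heat with NMN. The 3 groups of ATF6 did not overlap, but heat-stressed replicate 1 and NMN-supplemented replicate 1 differed by less than 0.01 FPKM. The FPKM ratio was 1.24 for heat-stressed and 1.31 for NMN-supplemented over control oocytes, and the log2 differences were 0.15 and 0.20 (SE 0.11). They were 0.28 and 0.36 with a pseudocount of 0.1 FPKM. The difference between the heated groups, 0.041, was smaller than its SE. LOC100154887 shares the locus of ATF6.

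Set against all tested genes, separation of the groups was frequent. Under heat relative to control, 31.6% of the tested genes were higher and 23.2% lower without overlap of the samples, and among the 5 tested members 1 was higher (ATF6) and 2 were lower (ATF4 and DDIT3). With NMN relative to heat alone, the shares of all genes were 35.9% and 17.6%, and 3 members were higher (PPP1R15A, PPP1R15B and ATF6) and 1 lower (ATF4). With heat and NMN relative to control, the shares were 43.5% and 26.4%, and 2 members were higher (PPP1R15B and ATF6) and 1 lower (ATF4). Since the members were chosen with these comparisons known, nothing is read from these counts. The sign of the ATF4 difference was kept in all 3 comparisons when the samples were scaled to the same median, to the same sum of nuclear genes or by quantiles.

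**Figure D2:**
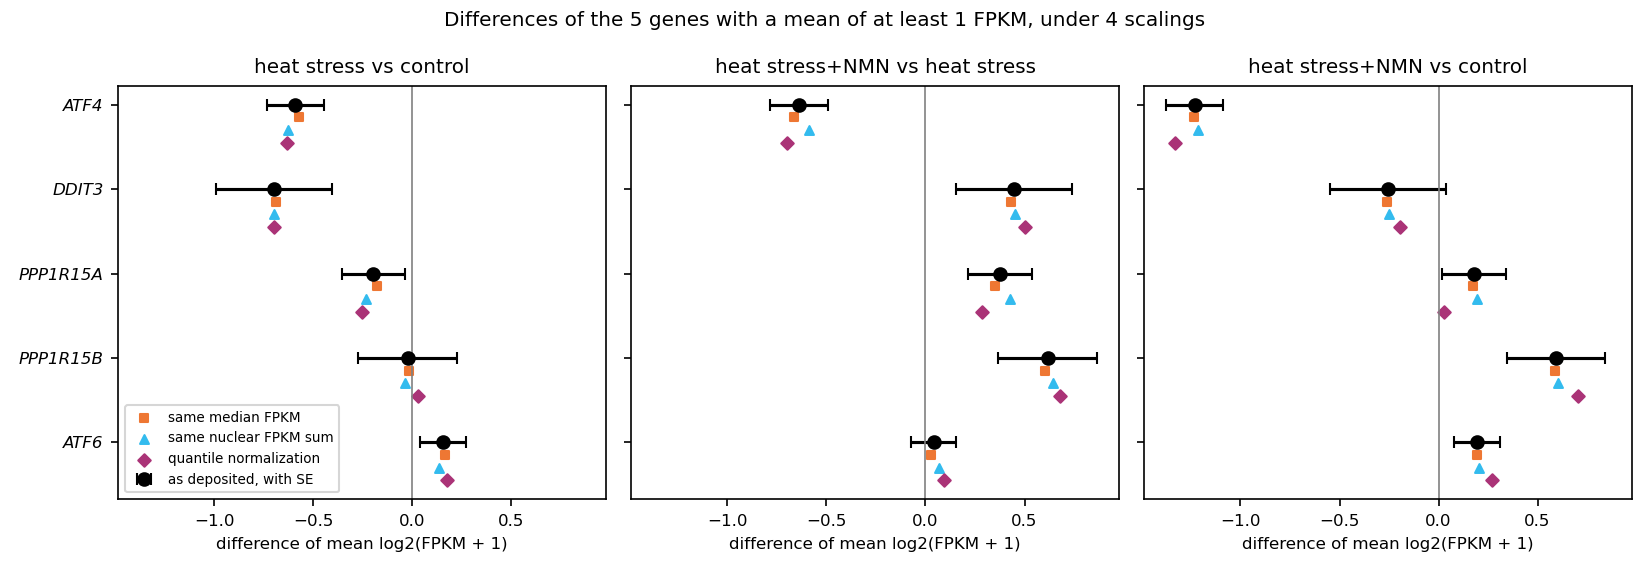
Difference of mean log2(FPKM + 1) between groups for the 5 members with a mean of at least 1 FPKM, in the 3 comparisons, with bars of 1 moderated SE on each side. ATF4 is the only member below 0 in all 3 comparisons by more than its SE of 0.14, and PPP1R15B is above 0 in both comparisons of NMN-supplemented oocytes.

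The transcripts with a course most like that of ATF4 were searched among the tested genes by Pearson's r of log2(FPKM + 1) over the 6 samples. The 5 most alike were LIG3 (0.997), a DNA ligase, C7H6orf106 (0.996), ASH2L (0.994), a subunit of histone H3 lysine 4 methyltransferase complexes, RIIAD1 (0.994) and COX7C (0.992), a subunit of cytochrome c oxidase. LIG3 had 3.61 and 3.67 FPKM in control, 2.26 and 2.58 under heat and 1.30 and 1.57 under heat with NMN. ASH2L had 4.86 and 4.83, 2.78 and 3.46, and 2.04 and 2.26 FPKM in the same order. Like ATF4, these genes were lower in heat-stressed replicate 1 than in replicate 2 and lowest with NMN. Such a course was common, with r over 0.9 for 258 and over 0.95 for 81 of the 4713 genes. These correlations are descriptions over 6 samples in 3 groups that share their scaling, and none of the 5 genes is in the pathway lists below. Of those lists, HSPA5 (0.957) and ASNS (0.936) had the highest r with ATF4. Courses opposite to that of ATF4 were as close, as in TMEM33 (−0.967), MBTPS2 (−0.955), NFYB (−0.943) and PPP1CB (−0.942), and among the listed ATF4 targets PSPH (−0.939) and GPT2 (−0.921). MBTPS2 and PSPH were named after their values were seen.

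**Figure D3:**
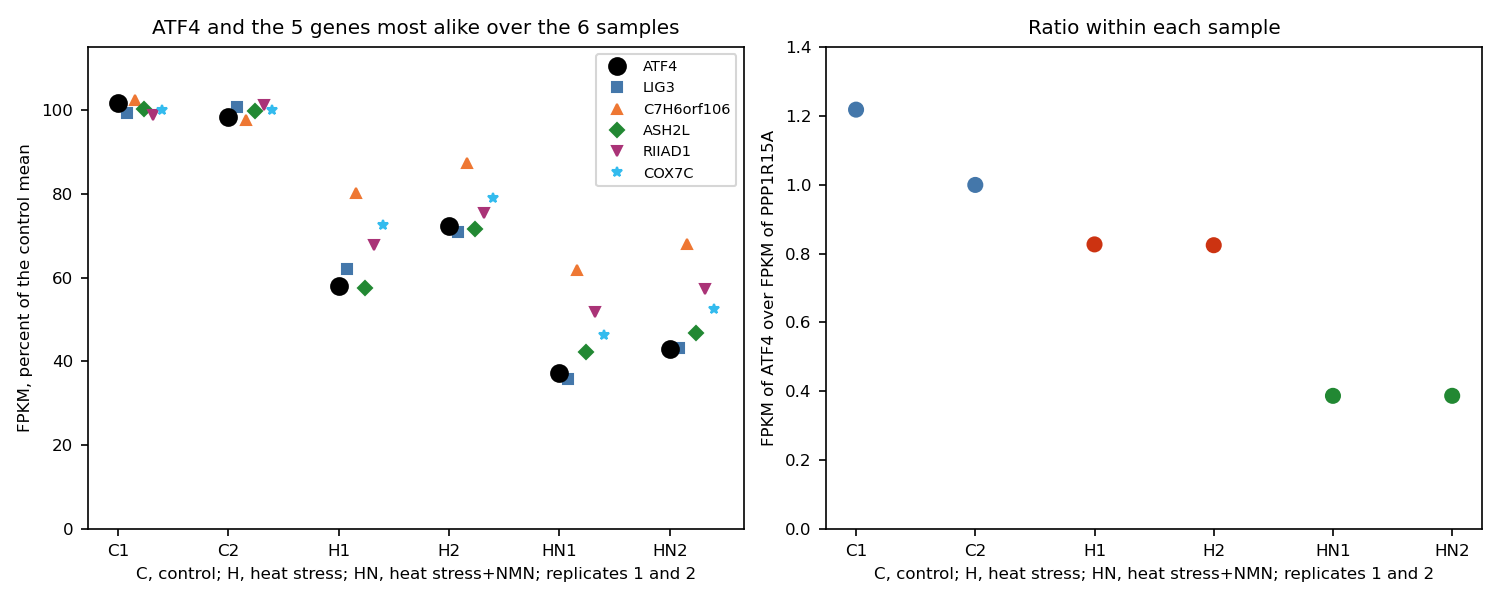
Left, FPKM of ATF4 and of the 5 genes most correlated with it, as percent of the control mean, in the 6 samples (C, control; H, heat stress; HN, heat stress+NMN). Right, FPKM of ATF4 divided by that of PPP1R15A in each sample, which falls from 1.22 and 0.999 in control to 0.387 in both NMN-supplemented samples.

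The wider pathway was described with 8 lists of 146 genes around the members, which leave out the members themselves. These lists were drawn up with earlier results of these data known. Of the 145 genes matched in the table, 55 had a mean of at least 1 FPKM and were tested with limma together with all other genes, and a gene is called here where its unadjusted P was under 0.05.

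Under heat relative to control, 8 of the 55 pathway genes were called higher (14.5%) and 6 lower (10.9%), beside 12.7% and 10.1% of all tested genes. No pathway gene and 0% of all genes had an adjusted P under 0.05 in limma. The median difference of the 55 genes was 0.029, and that of all tested genes 0.049. When the samples were scaled to the same sum of nuclear genes, the split was 2 higher and 9 lower, beside 7.07% and 10.4% of all tested genes under that scaling. The sensors and factors of the unfolded protein response held 4 higher and 1 lower of 6 tested genes. TMEM33, an ER membrane protein, had 13.2 and 11.9 FPKM in control and 19.0 and 19.9 under heat, a difference of 0.59 (SE 0.12, adjusted P = 0.118). CREB3L3, an ER-anchored transcription factor, was lower by −0.58 (adjusted P = 0.118), and NFYB, a subunit of the CCAAT-binding factor NF-Y, was higher by 0.39 (adjusted P = 0.195). Among the partner factors of ATF4 and CHOP, 2 of 6 were lower and none higher. ATF5, the close relative of ATF4, had 3.70 and 4.20 FPKM in control and 2.13 and 1.78 under heat (−0.75, SE 0.17, adjusted P = 0.127). CEBPG, a dimer partner of ATF4, differed by −0.55 (adjusted P = 0.157).

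Among the 18 tested ER targets of the unfolded protein response, 1 was higher and 2 were lower with heat. HSPA5 (BiP), the main chaperone of the ER lumen, had 41.6 and 48.4 FPKM in control and 29.0 and 33.7 under heat (−0.51, SE 0.13, adjusted P = 0.139). CRELD2, an ER-resident protein, differed by −0.71 and CANX (calnexin), a membrane chaperone of glycoproteins, by 0.34 (adjusted P = 0.142 and 0.213). Of the 10 tested ATF4 targets of amino acid supply, GPT2, a mitochondrial alanine aminotransferase, and SLC38A2, a neutral amino acid transporter, were higher by 0.43 and 0.61, and SLC7A3, a transporter of cationic amino acids, was lower by −0.59 (adjusted P = 0.153, 0.216 and 0.168). In the eIF2 machinery EIF2A, an initiation factor distinct from eIF2, was higher by 0.32 (adjusted P = 0.187), and 1 of 6 genes was called. No tested gene of the aminoacyl-tRNA synthetases, of the kinase and phosphatase regulators or of the growth and death targets was called.

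The heat calls were sensitive to single libraries, and the unadjusted limma P without the library named is given in parentheses. TMEM33, CREB3L3 and ATF5 were called whichever library was left out. CEBPG was lost without control replicate 1 (0.0542), control replicate 2 (0.0603) or heat-stressed replicate 2 (0.0623). SLC7A3 was lost without control replicate 1 (0.0956) or heat-stressed replicate 2 (0.0757). Without heat-stressed replicate 1, GPT2 (0.0661) and HSPA5 (0.0569) were lost, and without control replicate 2 CRELD2 (0.0574). EIF2A was lost without any one of the 6 libraries (0.0546 to 0.0894), and NFYB, SLC38A2 and CANX were lost without control replicate 2 (0.139, 0.217 and 0.168), among others.

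With NMN relative to heat alone, 3 of the 55 pathway genes were called higher and 3 lower (5.45% each), beside 7.15% and 6.45% of all tested genes. Again no pathway gene and 0% of all genes had an adjusted P under 0.05. The split was 3 higher and 5 lower under quantile normalization, beside 4.63% and 6.58% of all tested genes. TMEM33 was again higher, at 28.2 and 25.5 FPKM with NMN (0.44, SE 0.12, adjusted P = 0.277), as was ERN1 (IRE1α), the ER sensor that splices XBP1 mRNA. ERN1 had 2.48 and 2.52 FPKM under heat and 3.70 and 3.85 under heat with NMN (0.45, SE 0.13, adjusted P = 0.334). EDEM1, which delivers misfolded glycoproteins to degradation, was the other higher gene (0.44, adjusted P = 0.340). ASNS, the asparagine synthetase and a standard ATF4 target, was lower, with 2.57 ± 0.191 FPKM under heat and 1.42 ± 0.111 FPKM under heat with NMN (SD, n = 2 each). Its difference was −0.56 (SE 0.13, adjusted P = 0.260). CALR (calreticulin), whose upstream window with an ER stress element is printed above, had 5.73 and 9.48 FPKM under heat and 3.65 and 1.98 under heat with NMN (−1.18, SE 0.32, adjusted P = 0.289). SDF2, an ER protein that works with chaperones, was lower by −0.46 (adjusted P = 0.354). Of these 6 genes only ASNS was called whichever library was left out, and for the others the unadjusted limma P without a library is again in parentheses. TMEM33 was lost without NMN-supplemented replicate 1 (0.072), CALR without heat-stressed replicate 2 (0.0569) or NMN-supplemented replicate 2 (0.0594), and EDEM1 without heat-stressed replicate 1 (0.0999) or NMN-supplemented replicate 1 (0.117). SDF2 was lost without heat-stressed replicate 1 (0.0883), heat-stressed replicate 2 (0.118) or NMN-supplemented replicate 2 (0.201), and ERN1 without any one of the 4 libraries compared (0.0533 to 0.0826).

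With heat and NMN relative to control, where both heat and NMN differ, 13 of the 55 pathway genes were called higher and 13 lower (23.6% each), beside 25.6% and 15.7% of all tested genes. With an adjusted P under 0.05 there were 13 pathway genes of the 55, beside 21.5% of all tested genes. The median difference of the 55 genes was 0.060, and that of all tested genes 0.110. Without control replicate 2 or without NMN-supplemented replicate 2 the number of called pathway genes was 14, and without NMN-supplemented replicate 1 it was 16. In the list of ATF4 targets of amino acid supply, 2 genes were higher and 3 lower, of which 4 had an adjusted P under 0.05. CHAC1, which degrades glutathione and whose upstream window with the ATF4 site core is printed above, had 11.5 and 13.4 FPKM in control, 9.53 and 4.71 under heat and 2.64 and 4.37 under heat with NMN. The difference of the outer groups was −1.60 (SE 0.34, adjusted P = 0.0316). ASNS fell by 0.80 on the log2 scale from 2.88 and 3.55 FPKM in control (adjusted P = 0.0237), and GPT2 rose by 0.62 from 1.80 and 1.79 to 3.02 and 3.60 FPKM (adjusted P = 0.0294). ATF5 was also lower with NMN than in control (−0.72, adjusted P = 0.0423), whereas CEBPG missed the adjusted threshold (−0.52, adjusted P = 0.0684).

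The sensors and factors of the unfolded protein response again held 4 higher and 1 lower of 6 genes, and all 5 had an adjusted P under 0.05. Among all tested genes 25.6% were called higher and 15.7% lower, and 21.5% had an adjusted P under 0.05. The lists in this paragraph are small and were drawn up with earlier results known, so nothing is read from their counts. TMEM33 rose by 1.04 (SE 0.12, adjusted P = 0.021), ERN1 by 0.79 (SE 0.13, adjusted P = 0.0237) and NFYB by 0.61 (SE 0.14, adjusted P = 0.037) on the log2 scale. Of the 18 ER targets 3 were higher and 6 lower, 3 of them with an adjusted P under 0.05. These were HSPA5, which fell by 0.80 to 25.6 and 24.9 FPKM (adjusted P = 0.0237), CALR, which fell by 1.61 from 8.68 and 12.3 FPKM in control (adjusted P = 0.0294), and SDF2, which fell by 0.72 (adjusted P = 0.0403). The kinase and phosphatase regulators held 3 higher of 4 tested genes, none with an adjusted P under 0.05. They were PPP1CB (0.53) and PPP1CC (0.49), catalytic subunits of the phosphatase that the PPP1R15 proteins guide, and OMA1 (0.38), a mitochondrial protease that signals to HRI (adjusted P = 0.060, 0.0649 and 0.0758). In the eIF2 machinery EIF2A was higher by 0.31 and EIF2S2, the β subunit of eIF2, lower by −0.64 (adjusted P = 0.0967 and 0.116). No aminoacyl-tRNA synthetase and no growth or death target was called.

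In this comparison ATF5, ASNS, GPT2, CHAC1, TMEM33, ERN1, NFYB, HSPA5, CALR and SDF2 were called whichever library was left out. PPP1CB was lost without control replicate 2 (0.057), NMN-supplemented replicate 1 (0.0525) or NMN-supplemented replicate 2 (0.0654). PPP1CC (0.0763, 0.0546 and 0.0837) and OMA1 (0.0929, 0.101 and 0.0801) were lost without the same libraries. EIF2S2 was lost without control replicate 2 (0.206) or NMN-supplemented replicate 1 (0.204), among others, CEBPG without any one of the 4 libraries compared (0.0505 to 0.0919), and EIF2A without any one of the 6 (0.0542 to 0.166). Most tested oocyte marker transcripts moved in the same direction as ATF4. Under heat and under heat with NMN relative to control, all of them except BMP15 and BTG4 differed by less than 0. With NMN relative to heat alone, all of them, BMP15 and BTG4 included, were below 0. ZAR1 had 17.3 and 23.8 FPKM in control, 11.8 and 13.8 under heat and 4.30 and 2.84 under heat with NMN. ZAR1, ZP3 and ZP4 differed by −2.24, −1.26 and −1.02 for NMN-supplemented against control oocytes. GDF9, an oocyte growth factor, had 732 and 777 FPKM in control, 477 and 532 under heat and 435 and 353 under heat with NMN. BMP15, the marker with the highest FPKM, had 1606 and 1646, 1861 and 1940, and 1820 and 1751 FPKM in the same order. Relative to control, BMP15 differed by 0.22 and 0.13 and BTG4 by 0.11 and 0.075, under heat and under heat with NMN. Neither was called. Of 9 tested oocyte markers 4, 1 and 5 were called lower in the 3 comparisons in turn and none higher. Among all tested genes, 10.1%, 6.45% and 15.7% were called lower and 12.7%, 7.15% and 25.6% higher. Both tested cumulus and granulosa cell markers, KITLG and GREM1, were called higher under heat (0.31 and 0.40) and under heat with NMN (0.49 and 0.57) relative to control, and neither was called between the heated groups. The part of these marker shifts in the values of ATF4 and its targets was not tested.

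**Figure D4:**
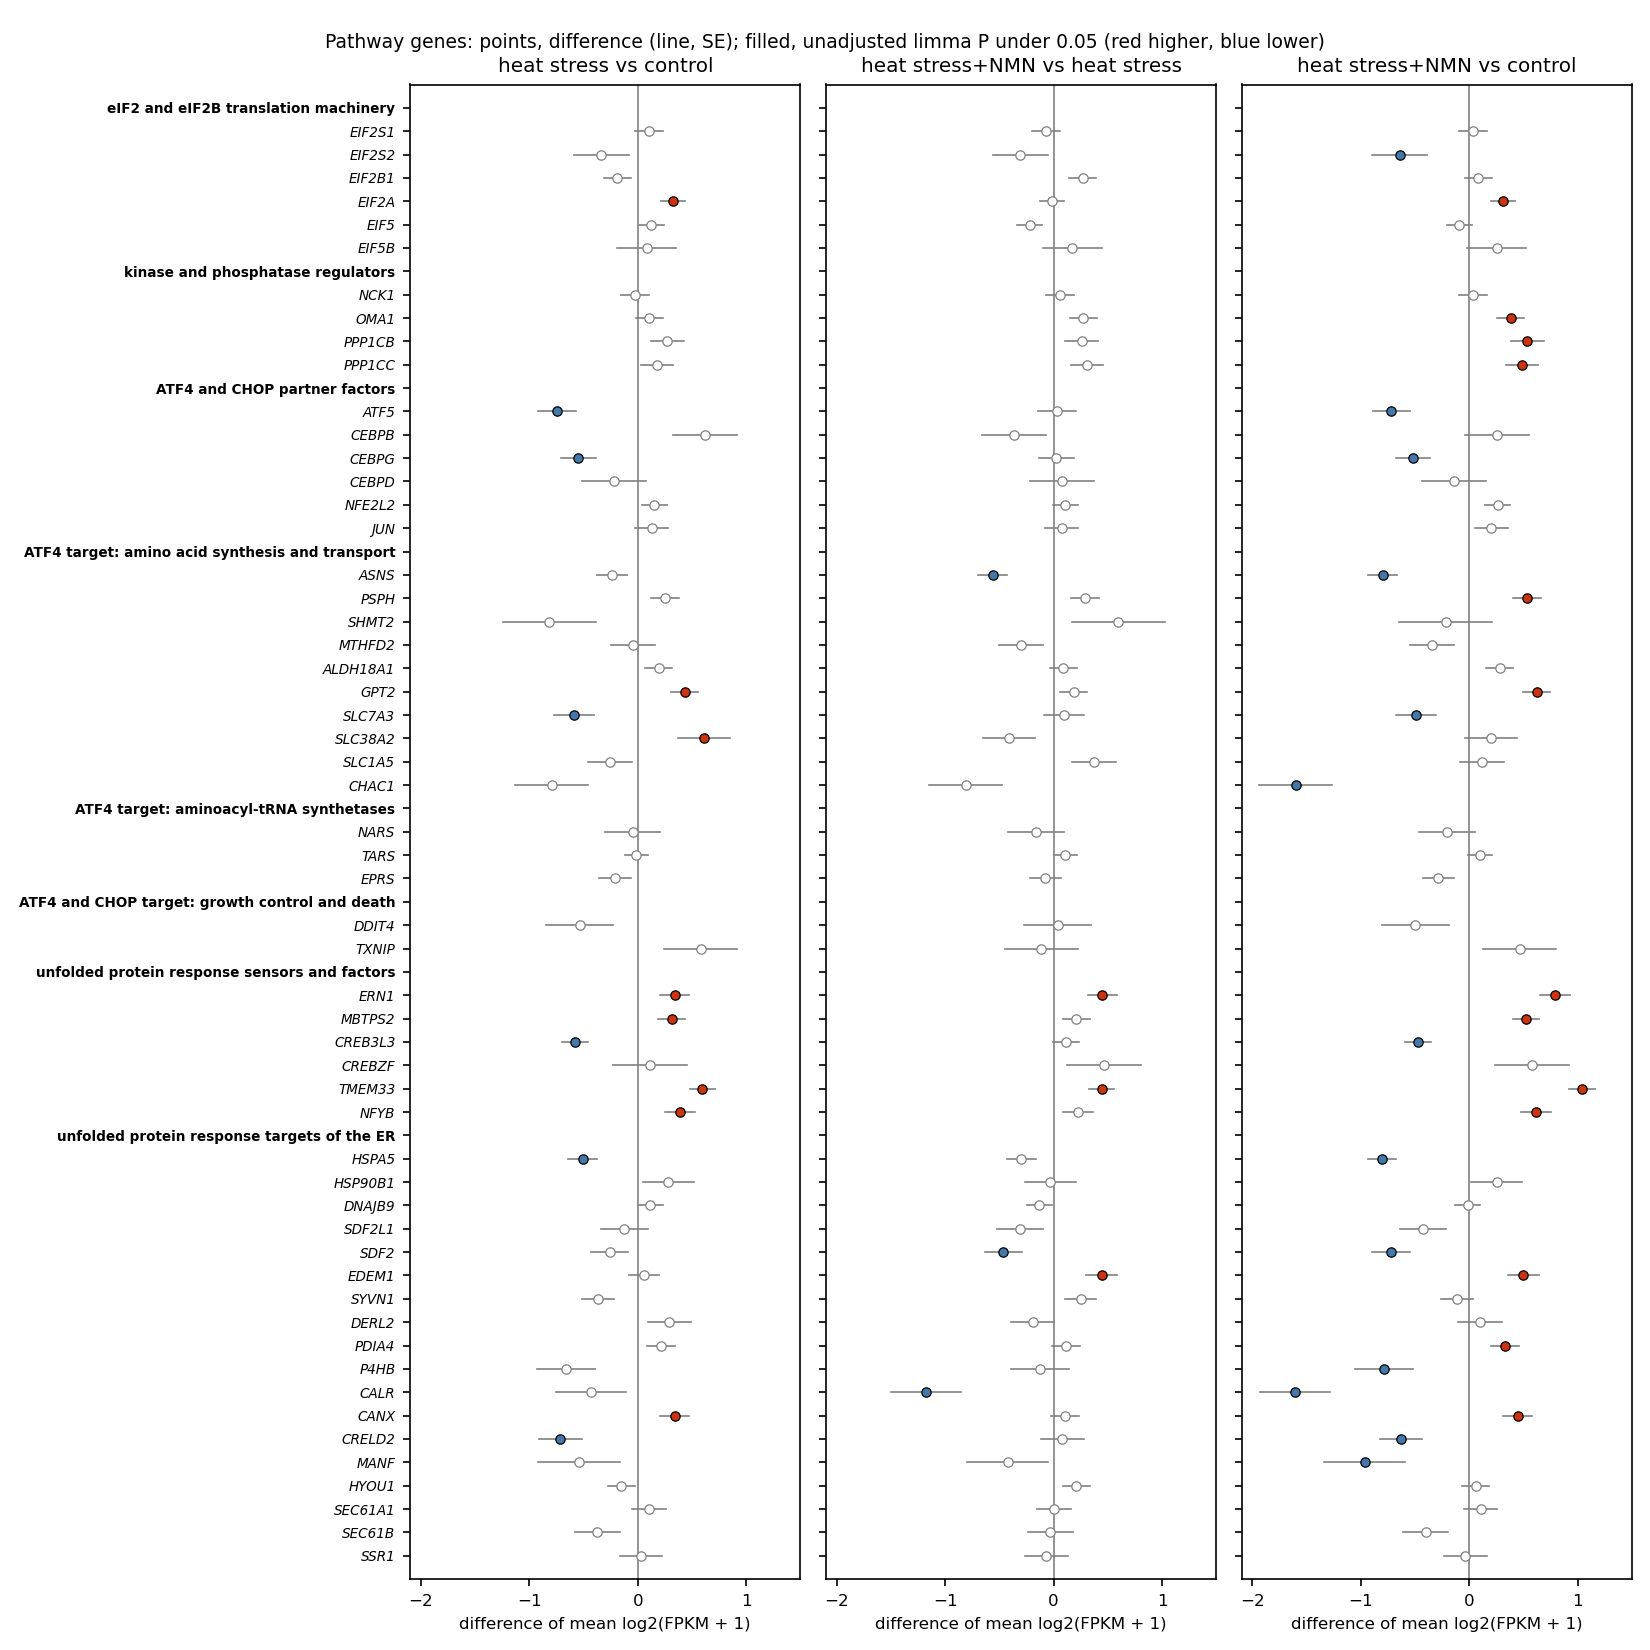
Difference of mean log2(FPKM + 1) with 1 SE for the 55 tested pathway genes, by list (rows), in the 3 comparisons (panels), where filled points have an unadjusted limma P under 0.05 (red higher, blue lower). Calls in both directions occur in each panel, with 8 higher and 6 lower for heat, 3 and 3 for NMN in heated oocytes and 13 and 13 for NMN-supplemented against control oocytes.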

How the data were processed

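RNA of porcine oocytes was sequenced in 2 control, 2 heat-stressed and 2 NMN-supplemented samples. According to the methods and the processing notes, the authors trimmed reads with cutadapt, aligned them to susScr11 with tophat2 and quantified genes with Cufflinks 2.2.1 and its companions Cuffnorm and Cuffdiff. The authors deposited FPKM for 29861 genes in each sample, and these were used as given. The authors' fold changes, P-values and q-values, deposited in the same table and in 2 lists of changed genes, were not used. The members and the gene lists were chosen with earlier results of these data known.

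FPKM were log2-transformed after adding 1 FPKM. The 4713 genes with a mean of at least 1 FPKM were fitted in one model of the 3 groups with limma 3.58.1 (R 4.3.3), with a variance trend and Benjamini-Hochberg adjustment over all tested genes. A gene was called at an unadjusted P under 0.05. With 2 samples against 2, a two-sided exact permutation test cannot give a p below 0.333. All 10 members were named, as were the 3 genes with the smallest P under 0.05 per list and comparison and the 5 genes most correlated with ATF4. Other filters, pseudocounts, scalings, a replicate block and the omission of single libraries were tried, where the remaining sample of a group is assumed to vary like the other groups. Upstream windows were read from RefSeq's Sscrofa11.1 annotation with samtools 1.23.1.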

Additional observations from a re-analysis of the deposited data

How the results depend on the processing

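The number of called pathway genes depended on the filter, which changes how many genes are tested, and on the threshold. For heat-stressed against control oocytes it was 14 of 55, beside 1074 of all 4713 tested genes. With a minimum mean of 0.1 FPKM it became 23 of 112 (8 higher and 15 lower), beside 1865 of 11651 genes (818 higher and 1047 lower). With no filter it was 25 of 140, beside 2388 of 20552 genes, and with a minimum of 5 FPKM 4 of 22, beside 468 of 1672 genes. With adjusted P it was 0, as for all tested genes. For NMN-supplemented against heat-stressed oocytes it was 6 of 55, beside 641 of 4713 genes, and became 0 with adjusted P, as for all tested genes. For NMN-supplemented against control oocytes it was 26 of 55, beside 25.6% higher and 15.7% lower of all tested genes. It became 41 of 140 with no filter and 11 of 22 with a minimum of 5 FPKM. The shares of all genes under those filters are not given for this comparison. With adjusted P it was 13 of 55, beside 21.5% of all tested genes. Leaving out 1 library at a time gave 8 to 15, 3 to 7 and 14 to 24 called genes. The heat count was 8 without control replicate 2 or heat-stressed replicate 2, and the count for NMN in heated oocytes was 3 without NMN-supplemented replicate 1. With the replicate number as a block the counts were 10, 6 and 24. Samples with the same number deviated from their groups with correlations across genes of only −0.032, −0.014 and 0.008, so no large shared shift was seen. These correlations cannot show whether samples with the same number were cultured or collected together. Of the 34 calls of named genes, 14 were kept whichever library was left out and 10 had an adjusted P under 0.05. Under the other filters, pseudocount, scalings and model forms 26 were never lost where tested, but 21 of the 34 were not tested with a minimum of 5 FPKM. None changed direction where tested. No depth is known, so the 5 members under a mean of 1 FPKM cannot be given a detection limit.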
